A study of Mus musculus with 8 samples.

Results

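The 10 genes described here are general and white adipocyte genes, chosen by gene symbol from the count table: Adipoq, Lep, Retn, Plin1, Cfd, Lipe, Pnpla2, Cidec, Pparg and Fabp4. They are 10 of the 24391 genes in the table, and all 10 passed the filter on low counts. The libraries hold RNA from 8 frozen brachiocephalic arteries with atherosclerotic lesions, taken from mice. This artery is the short first branch of the aortic arch. The animals were C57BL/6 mice of a smooth muscle lineage-tracing line, described as wild type, and had eaten a Western diet for 18 weeks. Of these, 4 were injected with an antibody against interleukin-1β (IL-1β) and 4 with immunoglobulin G (IgG) as control, which matches the 4 libraries in each group. The alleles of the tracing line, the promoter of its Cre, the animals' age and the antibody's dose are not given in the sources used here. The labels list smooth muscle cells, epithelial cells, macrophages and others as the cells of the lesion and do not mention fat.

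Adipocytes store triglyceride in a large lipid droplet and release it as fatty acids when fuel is short. The nuclear receptor PPARγ, encoded by Pparg, drives the differentiation of these cells and the transcription of many of their genes. White fat stores energy and secretes hormones, whereas brown fat burns lipid for heat through the uncoupling protein UCP1. Large arteries are surrounded by perivascular fat, which in mice around the thoracic aorta resembles brown fat. Fabp4 and Pparg are also expressed by macrophages, and Fabp4 by capillary endothelium, so these genes are not particular to fat.

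Between 20137336 and 29453014 counts per library fell on genes, and the 10 genes together took 0.372% to 0.685% of them. Levels below are CPM, the count of a gene rescaled to a common library size after scaling by trimmed mean of M values (TMM). Each fold change is the log2 ratio of antibody over IgG from 1 edgeR quasi-likelihood fit over 15980 genes, given with its standard error, and p-values were adjusted over all of these genes. In bulk tissue, fewer cells of a type and less RNA per cell cannot be told apart. Antibody animal 3 and IgG animal 1 stood apart in these genes, so results that rest on them are also given without them. Antibody animal 3 had the highest level of 7 of the 10 genes. The summed level of the 10 there was 7161 CPM, of which Fabp4 alone gave 3764 CPM, against 3535 to 5161 CPM in the other libraries. IgG animal 1 had the highest level of Lep alone among the 10. At the other end, antibody animal 2 had the lowest level of 5 of the 10 genes and the lowest summed level, 3535 CPM.

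The promoters of the 4 secreted members, Adipoq, Lep, Retn and Cfd, are shown because these genes include Lep, Retn and Cfd, the 3 members that varied most across the libraries. Each window runs from 250 bases before to 50 bases after the annotated RefSeq start (build GRCm38.p6, not the mm9 build of the counts). The letters are 5′ to 3′ on the strand of the gene, with capitals for matches to a C/EBP element (TTGCNNAA) or a TATA box (TATAA) on either strand.
Adipoq: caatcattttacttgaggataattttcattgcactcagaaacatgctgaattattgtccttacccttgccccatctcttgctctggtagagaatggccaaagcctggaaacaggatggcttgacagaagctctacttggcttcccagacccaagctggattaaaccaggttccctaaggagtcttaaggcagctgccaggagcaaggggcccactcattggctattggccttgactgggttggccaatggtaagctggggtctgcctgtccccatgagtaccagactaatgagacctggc
Lep: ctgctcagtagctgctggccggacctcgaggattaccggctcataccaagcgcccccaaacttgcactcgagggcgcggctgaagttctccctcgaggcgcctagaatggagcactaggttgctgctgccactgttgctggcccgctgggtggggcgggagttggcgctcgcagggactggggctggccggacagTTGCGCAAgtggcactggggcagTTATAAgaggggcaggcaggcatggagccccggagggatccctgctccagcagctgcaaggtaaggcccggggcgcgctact
Retn: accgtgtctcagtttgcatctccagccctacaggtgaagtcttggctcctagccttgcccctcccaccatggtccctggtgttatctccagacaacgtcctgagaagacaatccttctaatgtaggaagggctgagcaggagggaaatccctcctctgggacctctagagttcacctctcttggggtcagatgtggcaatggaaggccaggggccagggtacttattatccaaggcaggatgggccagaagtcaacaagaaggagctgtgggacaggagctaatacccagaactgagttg
Cfd: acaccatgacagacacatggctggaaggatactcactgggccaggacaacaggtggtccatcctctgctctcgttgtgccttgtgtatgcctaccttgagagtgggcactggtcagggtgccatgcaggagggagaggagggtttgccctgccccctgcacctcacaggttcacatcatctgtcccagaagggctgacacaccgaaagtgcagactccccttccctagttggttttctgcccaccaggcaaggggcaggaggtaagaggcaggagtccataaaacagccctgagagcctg
The windows lie at chr16:23146286-23146585 (plus strand) for Adipoq, chr6:29059971-29060270 (plus strand) for Lep, chr8:3655520-3655819 (plus strand) for Retn and chr10:79890603-79890902 (plus strand) for Cfd. Among the 4, only the Lep window held a match: 1 C/EBP element that starts 55 bases before the annotated start, and overlapping TATA matches on both strands, from 32 bases before it. RefSeq promoters were found for 9 of the 10 genes, in 13 windows, and not for Fabp4. The C/EBP letters were in 4 of the 13 windows and in 10.8% of all 32851 promoters of the same length, and the TATA letters in 2 of 13 and in 24.9% of all. The C/EBP matches were in windows of Lep, Plin1, Cidec and Pparg, and the TATA matches in those of Lep and Pparg. A PPAR element searched as a repeat of AGGNCA with 1 base between the copies (both strands) was in 0 of 13 windows and in 0.381% of all promoters.

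Per kilobase of exon, Fabp4 was by far the most abundant of the 10. Fabp4, which encodes a fatty acid carrier of adipocytes, had a mean level of 3732 ± 987 CPM per kilobase (SD over 8 libraries), the sixth highest of the 15980 genes. Cfd, which encodes the complement protease adipsin, followed with 388 ± 141 CPM per kilobase. Plin1 (225 ± 57.6), Adipoq (212 ± 58.6) and Pnpla2 (210.4 ± 69.5 CPM per kilobase) lay within 1 SD of each other. Cidec had 157 ± 50.5, Lipe 84.5 ± 21.6 and Pparg 57.8 ± 15.9 CPM per kilobase. The 2 lowest levels were those of the hormone genes Retn (16.3 ± 6.30 CPM per kilobase) and Lep (7.62 ± 9.90 CPM per kilobase), which overlapped across libraries.

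**Figure D1:**
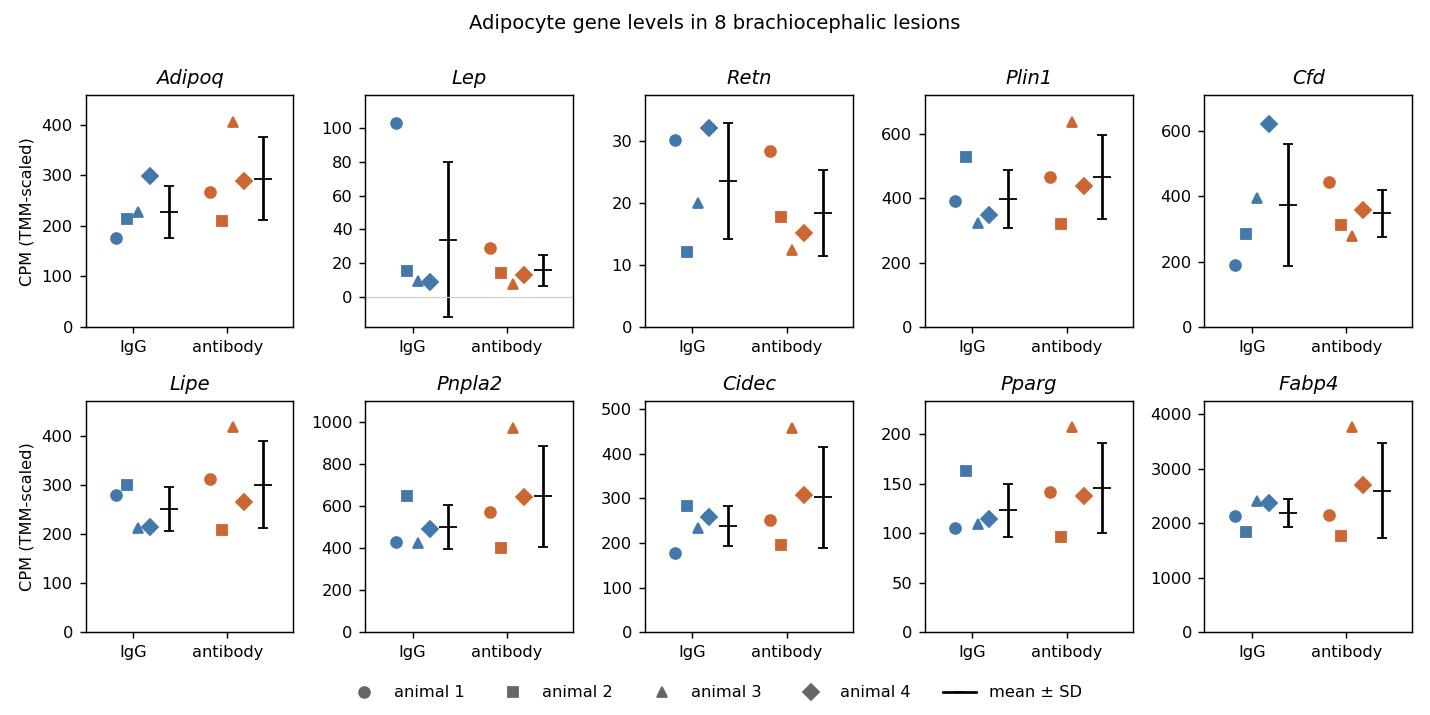
Level of each of the 10 adipocyte genes in every library, in CPM on TMM-scaled library sizes (y axis), for IgG and antibody animals (x axis); symbols mark animals 1 to 4 of a group, and black bars are the mean ± SD of 4 animals. Antibody animal 3 (triangle) is the highest in 7 panels, and IgG animal 1 (circle) stands at 103 CPM in the Lep panel, above all 7 other libraries.

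Adipoq encodes adiponectin, an adipocyte hormone that raises insulin sensitivity. Its levels were 176, 213, 227 and 298 CPM in IgG animals 1 to 4 and 268, 209, 405 and 289 CPM in antibody animals 1 to 4. The groups overlapped, with the highest value in antibody animal 3 and the lowest in IgG animal 1. The log2 fold change was 0.36 ± 0.22 (95% interval -0.14 to 0.86, edgeR adjusted p = 0.9997). It was 0.16 without antibody animal 3 and 0.49 without antibody animal 2. The gene lies on chromosome 16 from 23146609 to 23158041 (mm9, first to last exon).

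Lep encodes leptin, the hormone that signals fat stores to the brain. Its levels were 103, 15.1, 9.09 and 8.44 CPM in IgG animals and 28.8, 14.02, 7.39 and 12.9 CPM in antibody animals. The library of IgG animal 1 held 3006 Lep counts, against 169 to 590 in the others, and the highest level was 13.9 times the lowest. Apart from IgG animal 1 the groups overlapped, and antibody animal 1 was the next highest. The log2 fold change was -1.11 ± 0.81 (95% interval -2.93 to 0.72, edgeR adjusted p = 0.9997). Its direction rested on IgG animal 1: without that library the log2 fold change was 0.54. Over the 8 libraries, the SD of log2 CPM was 1.24 for Lep, which was higher than in 99.4% of the genes tested, where the median was 0.26. Lep spans 29010221 to 29023876 on chromosome 6 (mm9).

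Retn encodes resistin, a small secreted protein of white adipocytes in mice. Its levels were 30.1, 12.1, 19.9 and 32.1 CPM in IgG animals and 28.3, 17.7, 12.4 and 15.1 CPM in antibody animals. High and low values occurred in both groups, with IgG animal 4, IgG animal 1 and antibody animal 1 as the 3 highest. The log2 fold change was -0.36 ± 0.33 (95% interval -1.11 to 0.39, edgeR adjusted p = 0.9997). It was -0.21 without IgG animal 1 and -0.21 without antibody animal 3.

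Cfd had 190.0, 284, 394 and 622 CPM in IgG animals and 441, 311, 279 and 357 CPM in antibody animals. IgG animals held both the highest and the lowest value, and all 4 antibody values lay between them. The log2 fold change was -0.10 ± 0.32 (95% interval -0.83 to 0.63, edgeR adjusted p = 0.9997), and it was 0.26 without IgG animal 4. In antibody animal 3, where 7 of the genes were highest, Cfd was the lowest of the antibody group.

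The 4 genes of the lipid droplet and of lipolysis shared their highest library, antibody animal 3, but not the order of the others. Plin1 encodes perilipin 1, which coats the droplet and holds back lipases until it is phosphorylated. Its levels were 391, 526, 322 and 347 CPM in IgG animals and 466, 320.4, 637 and 436 CPM in antibody animals, and its log2 fold change was 0.23 ± 0.23 (95% interval -0.29 to 0.74, edgeR adjusted p = 0.9997). Antibody animal 3 and IgG animal 2 had the 2 highest values, and the groups overlapped. Cidec encodes a droplet protein that fuses small droplets into large ones. It had 177, 283, 233 and 257 CPM in IgG animals and 250.4, 195, 458 and 307 CPM in antibody animals, with a log2 fold change of 0.35 ± 0.26 (95% interval -0.23 to 0.92, edgeR adjusted p = 0.9997). The highest Cidec value was again in antibody animal 3.

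The 2 lipase genes were also highest in antibody animal 3. Pnpla2 encodes ATGL, which removes the first fatty acid from triglyceride, and had 428, 649, 426 and 489.6 CPM in IgG animals and 569, 398, 972 and 642 CPM in antibody animals. Lipe encodes hormone-sensitive lipase, the next enzyme of the chain, and had 281, 300.2, 212 and 214 CPM in IgG animals and 312, 209, 419 and 266 CPM in antibody animals. For both genes the highest value was in antibody animal 3 and the lowest in antibody animal 2, so the antibody group spanned the IgG group. The log2 fold changes were 0.37 ± 0.26 for Pnpla2 (95% interval -0.22 to 0.97) and 0.26 ± 0.22 for Lipe (95% interval -0.23 to 0.75), each with an edgeR adjusted p of 0.9997. Without antibody animal 3 they were 0.11 and 0.058, and those of Plin1 and Cidec 0.039 and 0.076. Without antibody animal 2 the values were 0.54 for Pnpla2, 0.39 for Lipe, 0.36 for Plin1 and 0.50 for Cidec.

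Pparg had 106, 163, 109 and 114 CPM in IgG animals and 141, 96.5, 207 and 137 CPM in antibody animals. As for Plin1 and Pnpla2, antibody animal 3 was highest, IgG animal 2 next and antibody animal 2 lowest. Its log2 fold change was 0.24 ± 0.23 (95% interval -0.28 to 0.76, edgeR adjusted p = 0.9997). Fabp4 had 2140.2, 1835, 2401 and 2379.5 CPM in IgG animals and 2153, 1764, 3764 and 2699.7 CPM in antibody animals, with a log2 fold change of 0.25 ± 0.25 (95% interval -0.31 to 0.80, edgeR adjusted p = 0.9997). Unlike Pparg, Fabp4 was low in IgG animal 2. Without antibody animal 3 the log2 fold changes were 0.022 for Pparg and 0.011 for Fabp4. Without antibody animal 2 they were 0.39 for Pparg and 0.39 for Fabp4.

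Of the 10 genes, 0 passed an edgeR adjusted p of 0.05 in either direction, as did 0% of all genes tested, and the smallest adjusted p of any gene was 0.208. At an unadjusted p under 0.05, 0 of 10 members stood against 3.19% of all genes in edgeR. The count was 2 of 10 in limma-voom with sample quality weights (Lipe and Retn), where 17.3% of all genes were under 0.05, and 1 of 10 in edgeR without antibody animal 2 (Adipoq), where 4.89% were. These 3 values had adjusted p of 0.263 or more. For none of the 10 genes did the antibody and IgG values fall apart without overlap, against 1.96% of all genes that did. The fold changes of 7 members were above 0 and those of 3 (Lep, Retn and Cfd) below 0, where 47.7% of all genes were above 0. The median log2 fold change of the 10 was 0.24, against -0.0096 over all genes. This median was 0.031 without antibody animal 3, 0.39 without antibody animal 2 and 0.23 without IgG animal 1. The intervals were wide: that of Adipoq, one of the narrower ones, includes both no change and an increase of 0.86 on the log2 scale.

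**Figure D2:**
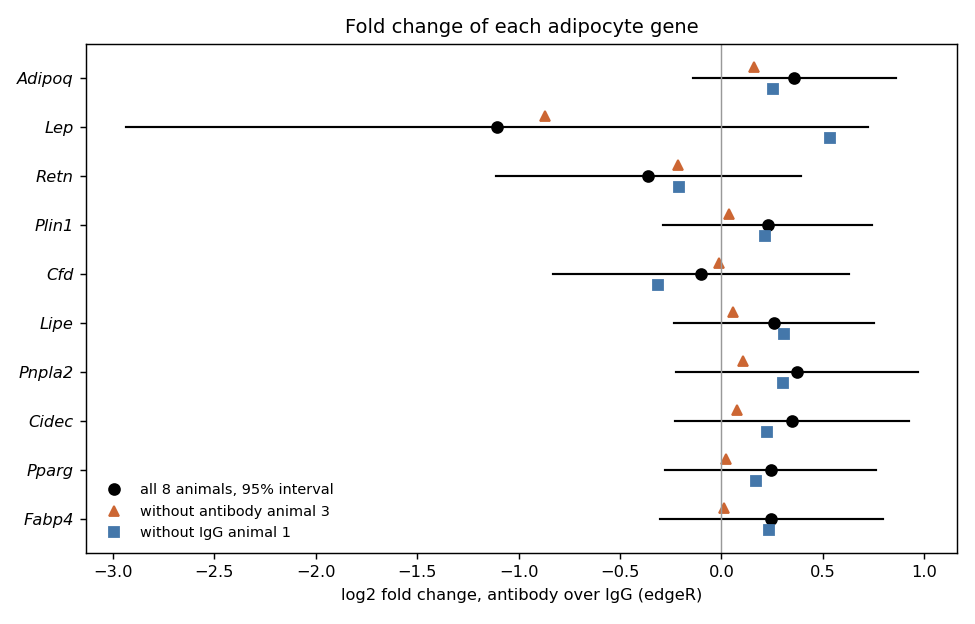
Log2 fold change of antibody over IgG (x axis, edgeR) for each adipocyte gene (y axis); black points and lines are the fit on all 8 animals with its 95% interval, triangles the fit without antibody animal 3 and squares the fit without IgG animal 1. All 10 intervals include 0, and the Lep value moves from -1.11 to 0.54 without IgG animal 1.

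Levels relative to Adipoq were compared within each library, where scaling between libraries has no part. Cidec and Fabp4 kept the steadiest ratio to Adipoq, with SDs of 0.19 and 0.21 on the log2 scale over 8 libraries and a 1.54-fold and 1.53-fold range. Pnpla2 (SD 0.28), Pparg (0.30), Plin1 (0.35) and Lipe (0.37) varied a little more. The ratio of Lep to Adipoq varied 32.1-fold, from a log2 ratio of -5.78 in antibody animal 3 to -0.77 in IgG animal 1, with an SD of 1.52. Retn to Adipoq varied 5.59-fold (SD 0.76), with the same 2 libraries at its extremes. Cfd to Adipoq varied 3.03-fold (SD 0.49), from -0.54 in antibody animal 3 to 1.06 in IgG animal 4. For all 9 ratios the groups overlapped. In both groups, the Lep ratio was higher in animals 1 and 2 (-3.90 to -0.77) than in animals 3 and 4 (-5.78 to -4.49). The CPM of Lep split in the same way and that of Fabp4 in the opposite way, but those of the other members did not. These splits were seen after the fact, and their cause was not tested. The mean log2 ratio of Lep to Adipoq was -3.59 ± 1.96 with IgG and -4.35 ± 1.09 with the antibody (SD over 4 animals), and that of Retn -3.35 ± 0.66 and -4.02 ± 0.79. For Plin1, the IgG animals lay between 0.22 and 1.31 and had an SD of 0.52, and the antibody animals had an SD of 0.092.

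**Figure D3:**
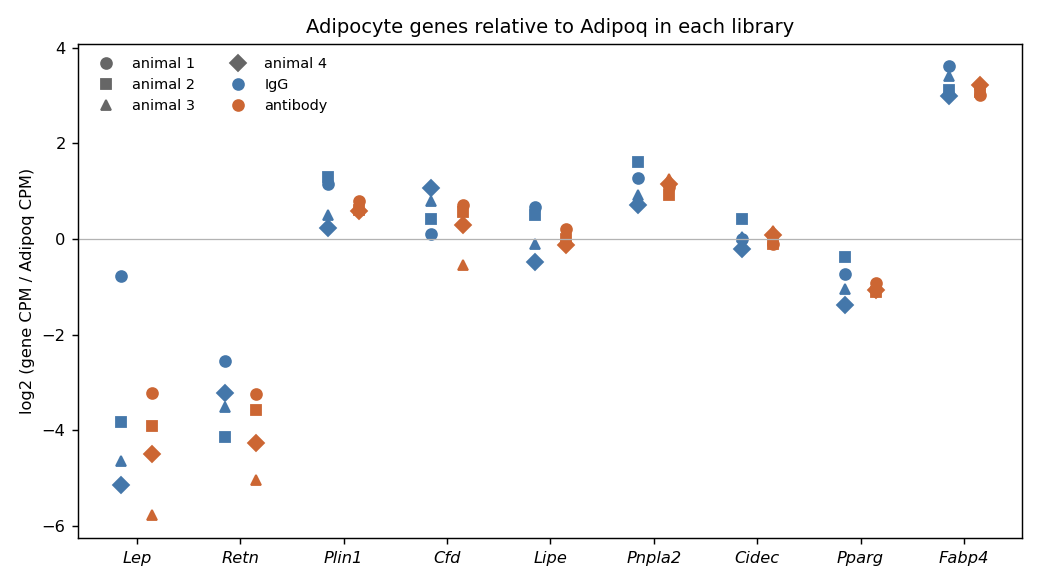
Log2 ratio of each gene's CPM to the CPM of Adipoq (y axis) for the 9 other genes (x axis); each symbol is 1 library, blue for IgG and orange for antibody, with shapes for animals 1 to 4. Lep spreads from -5.78 to -0.77, while Cidec and Fabp4 stay within a 1.54-fold range.

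Pairwise comparison of the genes used the same levels as the ratios, so it is no separate result. Between Plin1 and Pparg the mean absolute difference of centred log2 CPM over the 8 libraries was 0.072, between Plin1 and Lipe 0.077 and between Pnpla2 and Pparg 0.084. Lep differed from each other member by 0.75 (Retn) to 1.08 (Cidec). Retn was closer to Cfd (0.40) than to Adipoq (0.59), while Cfd was closer to Adipoq (0.36) than to Retn. These are distances over the same 8 libraries and carry no test.

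Genes most like the mean pattern of the 10 varied little between libraries. The 8 nearest of 14632 genes, by mean absolute difference of centred log2 CPM over 8 libraries, were Lman2l (0.040), Eral1 (0.059), Fam222b (0.066), Gpld1 (0.066), Bri3bp (0.066), Ndufaf3 (0.066), Bysl (0.069) and Timmdc1 (0.069). The members themselves lay at 0.14 (Lipe) to 0.84 (Lep). Of the 14632 genes, 869 lay closer to that mean than Lipe, 6356 closer than Adipoq and 14466 closer than Lep. The 8 genes were picked as the nearest, so their lying closer than the members is no separate result. The nearest genes to single members were chosen after values were seen. For Adipoq they were Ppa1 (0.096), Ptpn4 (0.11), Ddt (0.11), Plbd1 (0.11) and Mtg1 (0.12). For Lep they were Ccl25 (0.39), 2310069B03Rik (0.42), Alas2 (0.43), Fcrl5 (0.43) and Ttc25 (0.45), at distances that are large beside those for Adipoq. Ccl25, a chemokine gene, had 16.8 CPM in IgG animal 1 and 1.89 to 2.80 CPM in the other 7 libraries.

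The library with the highest Lep level also had the highest level of many lipid synthesis genes. Of 15 genes of triglyceride and fatty acid synthesis, 7 were highest in IgG animal 1, 7 in antibody animal 3 and 1 in antibody animal 1. Acly, which makes cytosolic acetyl-CoA, had 3312 CPM in IgG animal 1, 1157, 811 and 565 CPM in the other IgG animals and 1996, 947, 1973 and 779 CPM in antibody animals. Me1, which supplies NADPH for lipid synthesis, had 580.2 CPM in IgG animal 1 and 136 to 354 CPM elsewhere. Fasn, fatty acid synthase, had 17292 CPM in IgG animal 1, 10274, 5842 and 4267 CPM in the other IgG animals and 12041, 6343, 13626 and 6988 CPM in antibody animals. Lep and Acly therefore shared their highest library, but antibody animal 3, with 1973 CPM of Acly, had the lowest Lep level. Pck1, which feeds glycerol synthesis in fat, went the other way, with 224 CPM in IgG animal 1 and 674 to 1645 CPM elsewhere. Ppara, encoding the nuclear receptor PPARα, had 64.0 CPM in IgG animal 1 and 180 to 421 CPM elsewhere. Acly, Me1, Pck1 and Ppara were singled out after their values were seen.

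**Figure D4:**
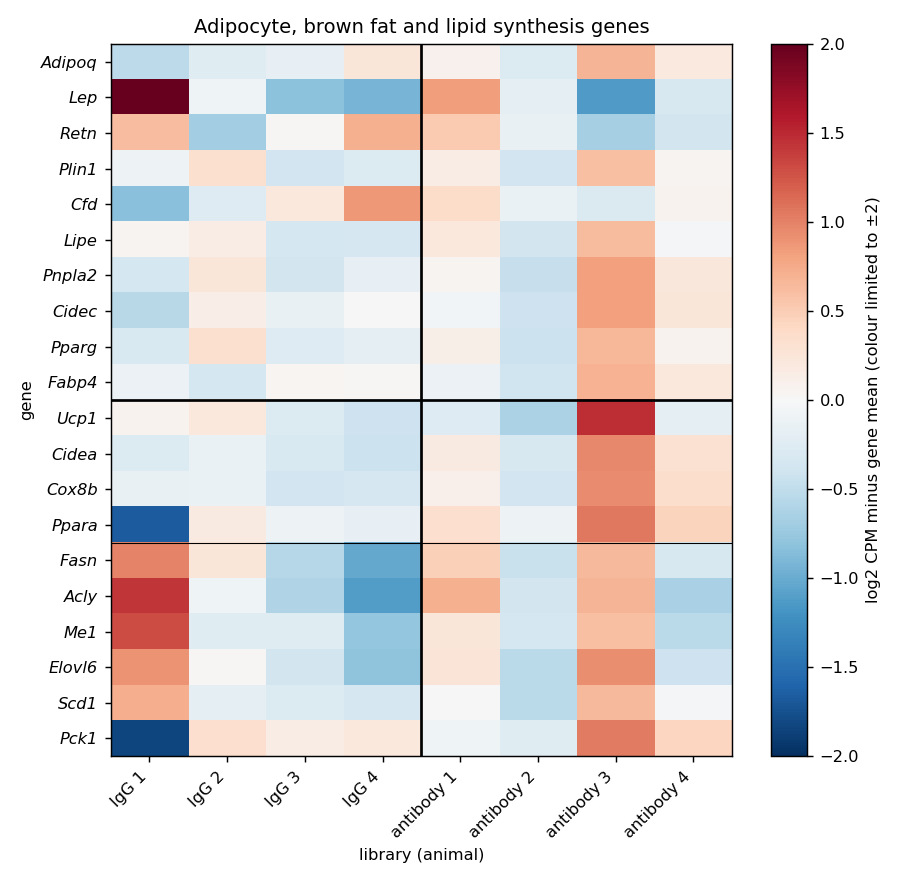
Log2 CPM minus each gene's mean over 8 libraries (colour) for the 10 adipocyte genes, 4 brown fat genes and 6 lipid synthesis genes (rows) in each library (columns, IgG left and antibody right of the line). IgG animal 1 is high for Lep, Acly and Me1 and low for Pck1 and Ppara. Antibody animal 3 is high for most rows but below the gene mean for Lep, Retn and Cfd.

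In the lists for adipocyte pathways, 0 genes passed an edgeR adjusted p of 0.05 in either direction, as for 0% of all genes, and 0 did in any of the 16 alternatives, DESeq2 and limma-voom included. At an unadjusted p under 0.05 in edgeR, Cidea, Cox8b, Aqp7 and Ebf2 were higher and Tcf21 and Tmem26 lower, where 1.13% of all genes were higher and 2.06% lower. The higher ones were 2 of 14 droplet genes tested, 2 of 13 brown genes and 1 of 11 transcription factors. Cidea is in 2 of these lists. The lower ones were 1 of 3 white-selective and 1 of 3 beige genes tested. In the synthesis, uptake and adipokine lists (15, 10 and 9 genes) there were 0. Among 14 droplet and lipolysis partners, 11 had fold changes above 0, the median log2 fold change was 0.13 and 11 were highest in antibody animal 3. Without that library the median was -0.046. Abhd5, the activator of ATGL, averaged 72.0 ± 13.2 CPM in the IgG group and 72.5 ± 18.5 CPM in the antibody group (SD over 4 animals, as for the means below). G0s2, the inhibitor of ATGL, had 69.3, 71.5, 64.8 and 59.7 CPM in IgG animals and 78.8, 54.3, 171 and 112 CPM in antibody animals. Its log2 fold change was 0.65 ± 0.30, and 0.30 without antibody animal 3. Mgll, the last lipase of the chain, had 313 ± 71.8 and 341 ± 115 CPM, and the droplet coat gene Plin2 637 ± 73.1 and 580 ± 194 CPM.

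The synthesis list had 13 of 15 fold changes above 0 and a median log2 fold change of 0.099, which was -0.052 without antibody animal 3 and 0.34 without IgG animal 1. Scd1, the desaturase gene, was the most abundant of the list per kilobase and averaged 23776 ± 9515 CPM with IgG and 24110 ± 8345 CPM with the antibody. Of the 10 uptake genes 9 were above 0 (median 0.21, or 0.067 without antibody animal 3), among them Lpl, the lipoprotein lipase gene, with 1622 ± 431 and 1799 ± 489 CPM. Fabp5, a relative of Fabp4 that macrophages also express, was the exception, with a log2 fold change of -0.49 ± 0.33, which was -0.069 without IgG animal 3. Its highest levels were in IgG animals 3 and 4 (799 and 469.7 CPM), the libraries with the highest summed macrophage markers.

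Transcription factors of fat cells had 6 of 11 fold changes above 0 (median 0.039, or -0.012 without antibody animal 3). Cebpa, the partner of Pparg in late differentiation, averaged 271 ± 56.1 CPM with IgG and 330.2 ± 61.8 CPM with the antibody (log2 fold change 0.28 ± 0.19). This was 0.14 without IgG animal 1 and 0.16 without antibody animal 3. Cebpb, an early factor, had 50.4 ± 5.60 and 51.8 ± 24.9 CPM. Receptors and other adipokines had 6 of 9 above 0 (median 0.14, or 0.059 without antibody animal 3). The adiponectin receptor genes Adipor1 and Adipor2 had 162 ± 7.95 and 412 ± 21.2 CPM with IgG and 172 ± 10.6 and 456 ± 84.6 CPM with the antibody, and Cdh13, which encodes the adiponectin-binding T-cadherin, 106 ± 23.1 and 105 ± 19.4 CPM. Lepr, the leptin receptor gene, had 17.0 CPM in IgG animal 1, its highest value, and 5.53 to 13.7 CPM elsewhere.

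The word white in the name of the set was checked against brown and white-selective markers, and several brown fat genes were abundant in every library. Ucp1 had 1158, 1275, 912 and 825 CPM in IgG animals and 914, 712, 3060 and 960.4 CPM in antibody animals. The highest value was in antibody animal 3, which was also highest for 12 of the 13 brown fat genes that passed the low-count filter. The summed level of the brown list was 5851 CPM in that library, of which Ucp1 alone gave 3060 CPM, and 1869 to 2731 CPM in the others. White-selective genes were scarce: Nnat had 15.6 ± 4.84 and 16.7 ± 3.68 CPM, Slc7a10 4.89 ± 2.48 and 3.95 ± 1.32 CPM, and the homeobox genes Hoxc8 and Hoxc9, which mark fat of the trunk and limbs, were at most 0.205 and 0.0684 CPM. Of the 14 brown genes, 3 were scarce too: Zic1 was at most 0.184 CPM and was not tested, Lhx8 averaged 0.861 and 0.910 CPM with IgG and the antibody, and Cpt1b 1.96 and 2.26 CPM. The other brown genes averaged 39.2 to 1227 CPM over the 8 libraries. The abundant Ucp1 goes against white alone as a name for the fat transcripts here. Levels of these lists in bulk tissue do not settle the type of fat. Because Hoxc8 and Hoxc9 mark fat by its place in the body, their near absence does not decide between white and brown. Of the 13 brown genes tested, all had fold changes above 0, with a median of 0.36, or 0.059 without antibody animal 3. For Ucp1 the log2 fold change was 0.44 ± 0.44, and -0.27 without antibody animal 3, so its direction rested on that library. Cidea, a droplet protein gene high in brown fat, had 352 ± 30.1 and 549 ± 207 CPM (log2 fold change 0.64 ± 0.24) and the cytochrome oxidase subunit gene Cox8b 189 ± 17.2 and 281 ± 109 CPM (0.58 ± 0.24). Both had an edgeR adjusted p of 0.9997, and without antibody animal 3 their log2 fold changes were 0.36 and 0.30.

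Tmem26, used as a marker of beige adipocytes, passed the low-count filter and had groups that did not overlap. It was the 1 such gene of the adipocyte lists, of 3 to 15 tested genes each, against 1.96% of all genes. Its lack of overlap was singled out after the values were seen. Tmem26 itself was named as 1 of the 2 most abundant beige genes per kilobase. It had 12.5, 15.8, 18.9 and 21.3 CPM in IgG animals and 10.2, 10.1, 9.23 and 11.3 CPM in antibody animals, with a log2 fold change of -0.75 ± 0.17 (edgeR unadjusted p = 0.00147, adjusted p = 0.9997). The gene did not pass the threshold. Tbx1, another beige marker, had 4.64 ± 1.51 and 4.06 ± 0.93 CPM.

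Markers of other cells moved across the libraries as well, and their part in the adipocyte values was not tested. The summed level of 11 macrophage markers ran from 2989 to 8147 CPM with IgG and from 4245 to 5562 CPM with the antibody. It was lowest in IgG animal 1 and highest in IgG animal 3, where Gpnmb alone gave 5337 CPM. All 11 had fold changes below 0, with a median log2 fold change of -0.27, or -0.075 without IgG animal 3. Of 8 smooth muscle markers 7 were above 0 (median 0.097, or -0.14 without antibody animal 2). Their sum was 2266 to 2977 CPM with IgG and 1476 to 3991 CPM with the antibody, lowest in antibody animal 3. The sum of 9 adventitial fibroblast markers was 2209 to 4783 CPM and 1772 to 3580 CPM, also lowest in antibody animal 3. All 9 had fold changes below 0 (median -0.25, or -0.093 without antibody animal 3). The sum of 8 endothelial markers was 1508 to 1892 CPM and 1547 to 1788 CPM. The sum of 8 skeletal muscle markers was 23.0 to 97.3 CPM and 34.0 to 67.5 CPM. In these 5 lists 0 genes passed an edgeR adjusted p of 0.05, as for 0% of all genes. At an unadjusted p under 0.05 in edgeR there was 1, Csf1r of the 11 macrophage markers (lower), where 2.06% of all genes were lower. Every smooth muscle, macrophage, endothelial, fibroblast and skeletal muscle marker found in the table had counts in all 8 libraries.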

How the data were processed

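The values are raw counts, deposited by the authors as reads per gene symbol for 8 libraries, with a second deposited table of alignment counts by status. Per the file headers, reads over exons were counted with featureCounts 1.4.6-p4 by gene name in the UCSC mm9 annotation, with no option for strand, pairs or multiple alignments; an antisense transcript over an exon would be counted with its gene. Exon lengths are those of the deposited table. The submitters' processing notes name STAR 3.0, DESeq2, Subread and CASAVA without saying what each did. Every column of per-sample counts was used, and groups follow the sample titles. The labels give 4 animals and 4 libraries per group, so the spread is taken as that between animals.

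Genes were kept by filterByExpr (minimum count 10, minimum total 15), scaled by TMM and tested with the edgeR 4.0.16 quasi-likelihood F-test (R 4.3.3, robust), no covariate, Benjamini-Hochberg over 15980 genes, threshold 0.05. Standard errors come from the fold change and F statistic. Distances between genes used log2 CPM with a prior count of 2. Alternatives were DESeq2 1.42.0, limma 3.58.1 (voom with quality weights), other scalings, no filter, a replicate block and left-out animals. On simulated counts for this comparison (15865 genes, dispersion 0.04), 83.8% of genes changed by 1 and 99.0% of those changed by 2 on the log2 scale were recovered, with 13 false calls. The fitted dispersions of the members were higher (0.0514 to 0.560), and recovery at those was not simulated.

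The members, lists and tests were chosen with earlier results of these data known. Genes named were all members, the 2 most abundant per kilobase of each adipocyte list and any past the threshold, the 8 genes most like the mean pattern, and partners or receptors of members by role; markers of other cells are given as sums. One gene that this rule would name is not reported here. Wdnm1 and Emr1, listed symbols, had no row in the table. Protein sequences were not used here.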

Additional observations from a re-analysis of the deposited data

Results flagged for a closer look

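Among 128 groups of 4 libraries checked, 7 had a highest or lowest value set far from the other 3, by Dixon's criterion for 4 values at the 95% level. Chance alone flags about 1 in 20 groups. Of these, 5 are in IgG animal 1. There Lep was at 102.8 CPM, with the next IgG value at 15.1, Scd1 at 38003 CPM (next 19977), Me1 at 580.2 CPM (next 198) and Ccl25 at 16.8 CPM (next 2.77). Pck1 was low there, at 224 CPM with the next IgG value at 883. The other 2 are Pparg in IgG animal 2, at 163 CPM with the next IgG value at 114, and Ucp1 in antibody animal 3, at 3060 CPM with the next antibody value at 960.4. Me1, Pck1 and Ccl25 were named after their values were seen, so their flags add nothing independent.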

How the results depend on the processing

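Over 16 alternatives to the edgeR fit, 0 members passed an adjusted p of 0.05, and 6 to 8 members had fold changes above 0. DESeq2 gave no p-value for Lep, so Lep was not tested in that alternative. The count of all genes past that threshold was 9 in DESeq2, 2 in limma-voom and 0 to 1 with 1 animal left out (1 without IgG animal 1 and 1 without antibody animal 2), against 0. The count at an unadjusted p under 0.05 was 509 and ranged from 310 without IgG animal 4 to 1517 without IgG animal 1, with 336 without antibody animal 3 and 783 without antibody animal 2; it was 2772 in limma-voom and 997 without both IgG animal 1 and antibody animal 3, a setting added after seeing the data. With total-count scaling 53.1% of these genes were higher, against 35.4% with TMM. Adipoq, Retn, Plin1, Lipe and Pnpla2 kept their direction in all 16, though Adipoq was at 0.015 in limma-voom and ranged to 0.51, and Retn ranged from -0.64 to -0.067. Lep was at 0.64 in limma-voom, 0.77 without both IgG animal 1 and antibody animal 3, and -1.57 to 0.54 with 1 animal left out. Cfd was at 0.00081 with the replicate block and -0.31 to 0.26 with 1 animal left out. With IgG animal 1 and antibody animal 3 both left out, Cidec was at -0.037 and Pparg at -0.043, and with IgG animal 2 and antibody animal 3 both left out, Fabp4 was at -0.046. Ucp1 was at -0.15 and -0.22 in those 2 settings (IgG animal 2 and IgG animal 1 left out with antibody animal 3) and -0.27 to 0.64 with 1 animal left out. The members' median log2 fold change was 0.020 with IgG animal 1 and antibody animal 3 both left out and 0.031 to 0.39 with 1 animal left out. The adipokine and receptor list had a median of 0.047 with IgG animal 2, and of 0.043 with IgG animal 1, left out beside antibody animal 3. The white-selective list, with 3 genes tested, was at -0.72 in limma-voom and -0.67 without both IgG animal 1 and antibody animal 3, and the beige list, also with 3, at -0.62 to -0.060 with 1 animal left out. The causes were not tested. Differences in ratio to Adipoq moved by less than 1 SD with raw counts and with each animal left out, though for Lep the difference went from -0.75 to 0.19 without IgG animal 1.

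Whether the replicate numbers pair the samples was not settled. The deviations of same-numbered animals correlated at 0.29, -0.34, -0.13 and -0.0012, and only animals numbered 1 correlated best with each other. With so few animals per group, these correlations cannot decide whether same-numbered animals share a factor. The splits by animal number described with the ratios to Adipoq were not tested for such a factor. With the replicate block 0 genes passed, and 361 had an unadjusted p under 0.05.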
